A study of Homo sapiens with 6 samples.

Results

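The genes described here are 47 genes of chromatin silencing by DNA methylation, by Polycomb or by methylation of lysine 9 on histone H3 (H3K9). For brevity all are called silencing genes, although TET1, TET2, TET3, KDM6A and KDM6B act on silencing marks in the opposite sense, by oxidising or removing them. The 47 are the rows of the deposited table whose gene name equals an entry of a list. The list holds DNA methyltransferases, TET dioxygenases, methyl-CpG-binding proteins, Polycomb subunits, H3K9 and HUSH factors and enzymes that remove histone marks. All 47 were found among the 20851 gene names of the table. The filter on low counts kept 44 of them and 14443 genes of the whole table, and it removed RING1, PCGF2 and EHMT2. The question asked was whether any silencing factor moves when RIPK4 is lost.

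RNA came from A375, an established human melanoma cell line, with 3 libraries of A375RIPK4.KO cells and 3 of A375neg cells. A375RIPK4.KO is a subline in which the kinase gene RIPK4 was disrupted with CRISPR/Cas9 and a lentiviral guide RNA, and the study calls it clone #1. A375neg was made in the same way with a guide that has no target in the human genome, although its labels name it a GFP control. Because 1 knockout clone was sequenced, the loss of RIPK4 and any other property of that clone cannot be told apart.

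DNA methyltransferases add methyl groups to cytosines in CpG pairs, where DNMT3A and DNMT3B set new marks and DNMT1, guided by UHRF1, copies them after replication. TET enzymes oxidise the mark and MBD proteins bind it. Polycomb repressive complex 2 (PRC2) methylates lysine 27 of histone H3, PRC1 ubiquitinates histone H2A, and HP1 proteins bind methylated H3K9, which SETDB1, SUV39H1, SUV39H2, EHMT1 and EHMT2 produce. In melanoma, loss of 5-hydroxymethylcytosine, the product of the TET enzymes, and raised activity of EZH2, the catalytic subunit of PRC2, are well known.

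The targeted gene matched the labels. RIPK4 had 319, 339 and 383 normalized counts in A375neg replicates 1 to 3 and 45.9, 53.2 and 61.8 in A375RIPK4.KO, a log2 fold change of −2.69 (SE 0.17, adjusted p = 1.02e-05). This and every later adjusted p comes from the quasi-likelihood test of edgeR, adjusted by Benjamini and Hochberg's method over every gene tested, unless another test is named. A normalized count is a raw count over the relative size of its library after TMM scaling, and libraries held 21882863 to 26694140 raw counts. A count of 0 allows up to 3 counts, or 0.112 to 0.137 CPM depending on the library, where counting error alone is considered. SOX10, a defining gene of the melanocyte lineage, was at 7774 to 9531 normalized counts in the 6 libraries, whereas TYRP1, a pigment enzyme, was at 8.35 or less and PTPRC, which marks leukocytes, at 2.84 or less.

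Markers of the melanocyte lineage differed between the groups. Of 11 such genes, 7 were in the table and 6 were tested, and all 6 had log2 fold changes below 0, from −0.89 to −0.20. MITF (−0.44), S100B (−0.89), S100A1 (−0.86) and MCAM (−0.37) were called (66.7% of those tested, all genes 16.6%), and SOX10 was not (−0.20, adjusted p = 0.0507). SOX10 was called with DESeq2 (adjusted p = 0.0141), without A375RIPK4.KO replicate 2 (0.0322) and in some other fits. MCAM was called with each library left out in turn, MITF only without A375neg replicate 2, S100B only without A375RIPK4.KO replicate 2 or A375neg replicate 1, and S100A1 in none of these fits nor with DESeq2 (adjusted p = 0.108). Markers of other cell types went in both directions. LYZ of leukocytes was at −2.62 (adjusted p = 0.0382) and CD68 at 0.14, KRT14 of keratinocytes at −1.75 and KRT10 at −0.0055, and PECAM1 of endothelium at −2.12 and KDR at 0.60 (adjusted p = 0.0216). Without A375RIPK4.KO replicate 3 the adjusted p was 0.134 for LYZ and 0.0693 for KDR, and both calls were also lost without A375neg replicate 2 or 3, that of LYZ also without A375neg replicate 1. Among fibroblast genes, 0 of 3 tested were called (all genes 16.6%) and 1, LUM, had an unadjusted p under 0.05 (all genes 30%). LUM was at −1.38 (adjusted p = 0.0552), COL1A1 at −1.34 and PDGFRA at 0.27. For all 3 the groups did not overlap (100%, all genes 36.5%). The part of these genes in the results below was not tested.

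A375RIPK4.KO replicate 2 stood apart from the other knockout libraries. The second principal component, with 14.9% of the variance, placed it at −34.6 and A375RIPK4.KO replicates 1 and 3 at 25.7 and 14.1. In this library genes with long exons tended to have fewer counts than in the other knockout libraries. Several silencing genes are long, so values without this library are given below.

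Of the 44 tested silencing genes, 6 passed an adjusted p of 0.05 (13.6%), beside 16.6% of all 14443 genes. DNMT3B, UHRF1, TET1 and KDM5B were lower in A375RIPK4.KO, where 8.24% of all genes were called lower, and SUV39H1 and TRIM28 were higher, where 8.4% of all genes were called higher. Only DNMT3B, UHRF1 and TET1 also passed a 1.5-fold limit (6.82%, all genes 9.04%, or 4.65% on the lower side). Without A375RIPK4.KO replicate 2 only 1 gene, DNMT3B, passed both limits, with UHRF1 at −0.42 and TET1 at −0.57. Leaving out 1 of the other libraries gave 0 to 2. The share of all genes past both limits was not counted in these fits. At an adjusted p under 0.05 alone, the share of all genes was 19.8% without A375RIPK4.KO replicate 2 and 10.3% to 14.4% without another library. For 16 of the 44 genes (36.4%) the libraries of one group all lay outside the other group, which was the case for 36.5% of all genes. Without overlap and lower in A375RIPK4.KO were 8 of the 44 (18.2%) and 17.8% of all genes. At an unadjusted p under 0.05 there were 8 (18.2%, all genes 30%), the 6 genes above with EED and TASOR. DESeq2 also called 6, with TASOR in place of UHRF1 (all genes 16.2%).

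Most silencing genes differed little between the groups. The log2 fold change was under 0.25 in size for 35 of 44 (79.5%), beside 61% of all genes and 72% of the genes with a like mean level (140.8 to 4820 normalized counts, the range between the 10th and the 90th percentile of the silencing genes). The median log2 fold change was −0.03 and that of all genes −0.0047. Against the A375neg mean, the median silencing gene lay at 0.05 in A375RIPK4.KO replicate 1, at −0.12 in replicate 2 and at −0.03 in replicate 3 on the log2 scale, so that replicate 2 was the lowest knockout library.

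**Figure D1:**
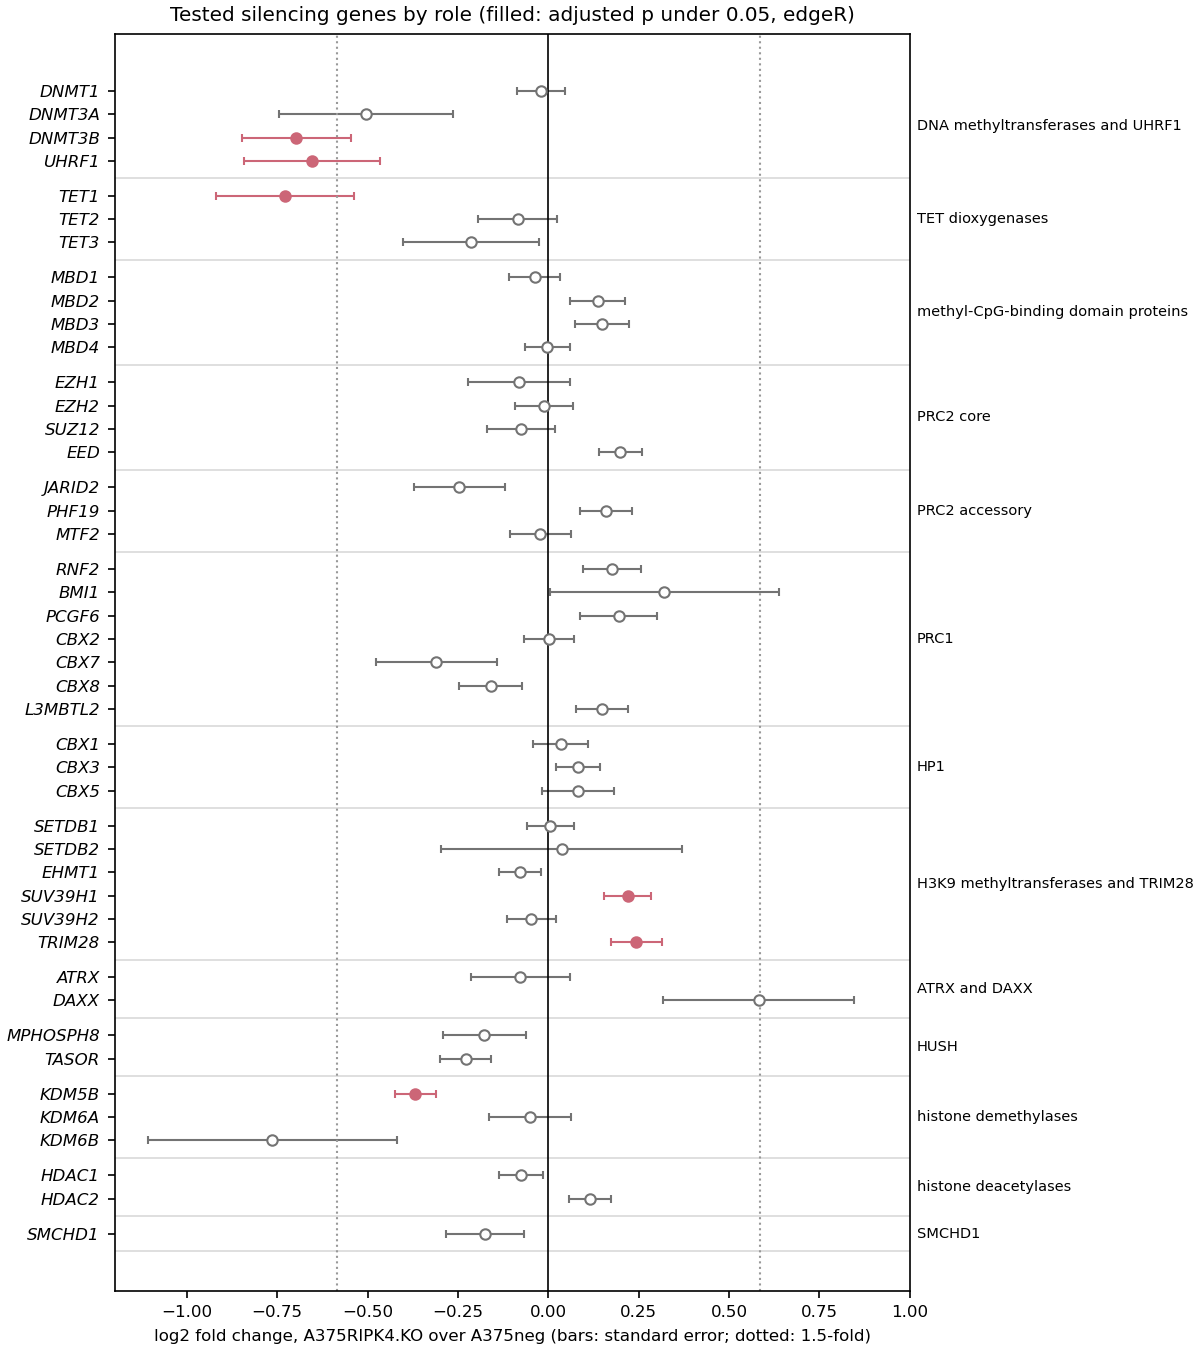
The log2 fold change of each of the 44 tested silencing genes (A375RIPK4.KO over A375neg, edgeR) is plotted by role, with bars for the standard error, filled points for an adjusted p under 0.05 and dotted lines at 1.5-fold. The 6 filled genes run from −0.73 for TET1 to 0.24 for TRIM28, and most other points lie within 0.25 of 0.

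The DNA methyltransferases and UHRF1 differed among themselves. DNMT3B, a de novo methyltransferase at chr20:32762385-32809356 (GRCh38, as all positions here), had 188, 173 and 169 normalized counts in A375neg and 109, 117 and 100.4 in A375RIPK4.KO. Every knockout library lay below every control library. DNMT3B fell by 0.70 on the log2 scale (SE 0.15, adjusted p = 0.0127), from 177 ± 10.1 (SD, n = 3) to 109 ± 8.27. Its adjusted p was 0.0527 without A375RIPK4.KO replicate 3 and 0.0508 without A375neg replicate 1.

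UHRF1, at chr19:4903080-4962154, binds hemimethylated CpG sites and brings DNMT1 to newly copied DNA. Its normalized counts were 2567, 2581 and 2756 in A375neg, and 1851, 1103 and 2069 in A375RIPK4.KO. The groups did not overlap, and A375RIPK4.KO replicate 2 was far below the other knockout libraries. UHRF1 fell by 0.65 on the log2 scale (SE 0.19, adjusted p = 0.0434), and by 0.42 without A375RIPK4.KO replicate 2 (adjusted p = 0.00101). The call was lost without A375RIPK4.KO replicate 1 (0.0547) or A375neg replicate 1, 2 or 3 (0.106, 0.108 and 0.129), with DESeq2 (adjusted p = 0.084) and when the mean count had to reach 50 (0.0504).

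The partner of UHRF1, the maintenance methyltransferase DNMT1, had 9304, 9347 and 8703 normalized counts in A375neg and 9330, 8344 and 9295 in A375RIPK4.KO. These values overlapped, with a log2 fold change of −0.02 (SE 0.07, adjusted p = 0.871). DNMT3A, the other de novo enzyme, had 224, 152 and 197 in A375neg and 151, 90.8 and 162 in A375RIPK4.KO, which overlapped (log2 fold change −0.50, SE 0.24, adjusted p = 0.198). Without A375RIPK4.KO replicate 2 the log2 fold change of DNMT3A was −0.28 (adjusted p = 0.357). Per exon length DNMT1 was the most abundant of the methyltransferases, at 68 RPKM in A375neg, beside 1.55 for DNMT3B and 0.724 for DNMT3A. UHRF1 was at 20.9 RPKM there. The fall of DNMT3B thus took place at a low level, and the level of DNMT1 showed no change beyond the spread of its libraries.

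Among the TET dioxygenases, TET1, at chr10:68560337-68694487, was called. It had 146, 168 and 167 normalized counts in A375neg and 111, 75.2 and 103 in A375RIPK4.KO, with no overlap and with replicate 2 the lowest knockout library. TET1 fell by 0.73 on the log2 scale (SE 0.19, adjusted p = 0.0301) and by 0.57 without A375RIPK4.KO replicate 2 (adjusted p = 0.0439). The adjusted p was 0.0645 without A375RIPK4.KO replicate 3, and 0.0559, 0.104 and 0.0916 without A375neg replicates 1, 2 and 3.

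TET2 and TET3, which carry out the same oxidation, were not called. TET2 had 508, 580 and 611 normalized counts in A375neg and 584, 468 and 553 in A375RIPK4.KO (log2 fold change −0.08, SE 0.11, adjusted p = 0.654). TET3 had 1326, 1185 and 1189 in A375neg and 1257, 704 and 1229 in A375RIPK4.KO (−0.21, SE 0.19, adjusted p = 0.491). In both genes A375RIPK4.KO replicate 2 was the lowest of the 6 libraries, and without it both log2 fold changes were slightly above 0, at 0.0071 and 0.0155. Per length TET3 was the most abundant TET gene, at 4.37 RPKM in A375neg, beside 1.47 for TET2 and 0.702 for TET1. The readers of the mark, MBD1, MBD2, MBD3 and MBD4, had log2 fold changes of −0.04 to 0.15. Of these, 0 of 4 were called (all genes 16.6%), with a lowest adjusted p of 0.218.

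**Figure D2:**
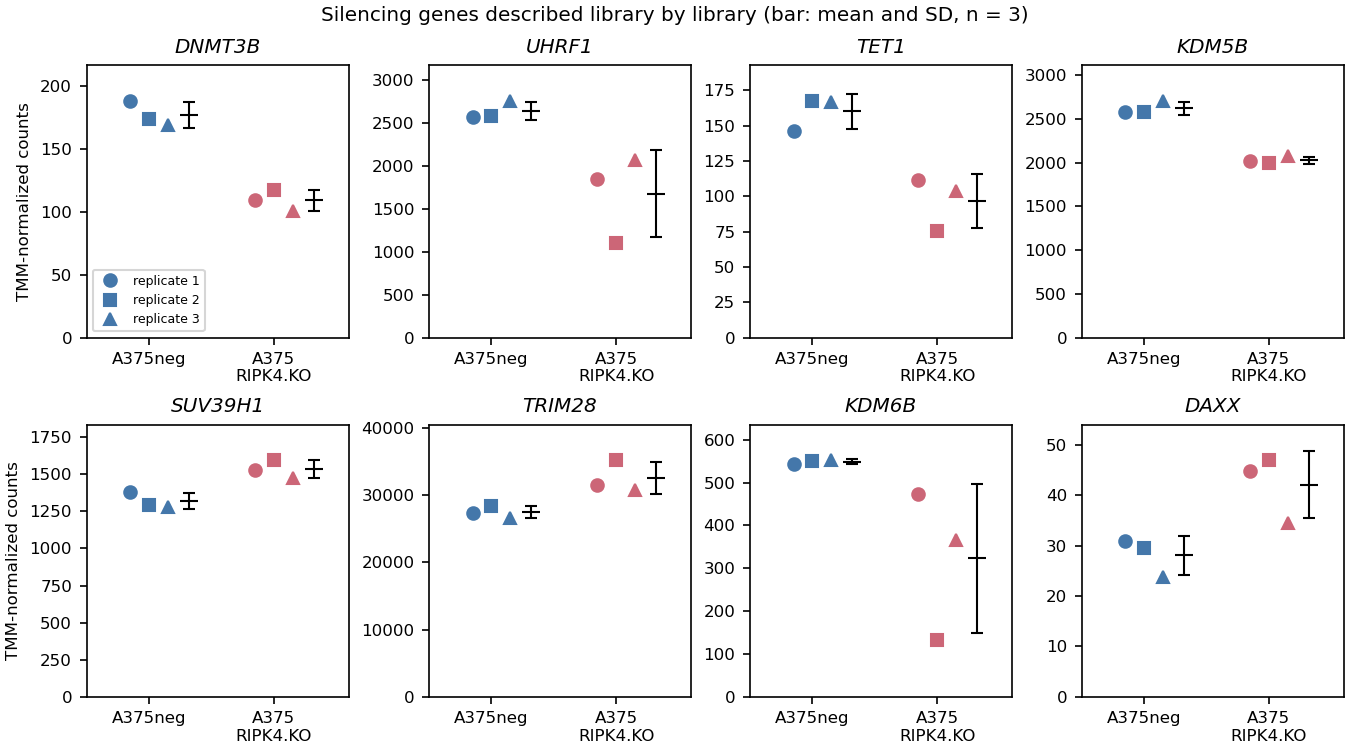
Normalized counts of 8 silencing genes are plotted for each of the 6 libraries, with symbols for replicates 1 to 3 and bars for the mean and SD of each group (n = 3). The 8 genes were chosen because they were called or, for KDM6B and DAXX, because the groups do not overlap. The lack of overlap in all 8 is thus no result, and 36.5% of all genes show it. A375RIPK4.KO replicate 2 is the lowest library for UHRF1 (1103), TET1 (75.2), KDM6B (133) and, by a small margin, KDM5B (1998).

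UHRF1, DNMT1 and EZH2 are known as genes transcribed with DNA replication, which E2F factors control in many promoters. RefSeq promoter windows (GRCh38.p14, 250 bases before to 50 after a start) were on hand for 42 of the 47 genes, not for CBX2, CBX8, TRIM28, ATRX or DAXX. The 42 include RING1, EHMT2 and PCGF2, which were not tested. The only window of DNMT3B, chr20:32779602-32779901, belongs to a start inside the gene, so the outer start of DNMT3B was not searched. They were searched on both strands for the letters TTTGGCGC, TTTCGCGC, TTTCCCGC and TTTGCCGC, a form of the E2F motif. The letters were found in 8 of the 42 genes (19%), beside 6.59% of 10848 tested genes with a window and 3.99% of all genes of the promoter table. The 9 matches are shown with 30 bases each on the strand of the gene, with the match in capitals, so that the site of the 1 called gene can be set beside those of the 7 genes that were not called.

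UHRF1 at chr19:4909476-4909505 (+): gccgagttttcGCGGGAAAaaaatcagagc
UHRF1 at chr19:4909973-4910002 (+): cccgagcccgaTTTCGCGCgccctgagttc
DNMT1 at chr19:10194937-10194966 (−): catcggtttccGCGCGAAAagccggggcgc
EZH2 at chr7:148884272-148884301 (−): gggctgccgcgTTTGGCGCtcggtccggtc
EZH1 at chr17:42745137-42745166 (−): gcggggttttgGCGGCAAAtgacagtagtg
SUZ12 at chr17:31936807-31936836 (+): cgacccctaatTTTCCCGCgaattcagttc
MTF2 at chr1:93079277-93079306 (+): accggcagtccGCGGGAAAccaaaatggcg
PHF19 at chr9:120877322-120877351 (−): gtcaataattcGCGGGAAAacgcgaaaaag
CBX3 at chr7:26201428-26201457 (+): cggagtccggtTTTGGCGCcagccgctgag

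UHRF1 was the only one of these 8 genes that was called, while 16.6% of all genes were, and so small a count does not set them apart. The other 7 had log2 fold changes from −0.08 for EZH1 to 0.16 for PHF19. UHRF1 carries the letters in 2 windows that belong to different starts, 14 bases before one start on the reverse strand and 160 bases before the other on the forward strand. A second motif, the CCAAT box (CCAAT), was found in 47.6% of the silencing genes and 43.5% of tested genes, and the CHR letters (TTTGAA) in 14.3% and 14%. These are matches of letters, not measured sites of binding. The upstream part of the second UHRF1 window, chr19:4909894-4910143 (+), is shown whole because it holds the E2F letters together with CCAAT boxes, again in capitals. The first UHRF1 window also holds both motifs, as do windows of EZH2, SUZ12 and PHF19, which were not called.

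UHRF1: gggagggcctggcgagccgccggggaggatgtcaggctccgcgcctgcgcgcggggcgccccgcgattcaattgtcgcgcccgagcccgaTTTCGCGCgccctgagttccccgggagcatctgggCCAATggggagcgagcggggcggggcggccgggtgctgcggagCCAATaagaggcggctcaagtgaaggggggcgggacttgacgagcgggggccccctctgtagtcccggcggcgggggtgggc

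This stretch of 250 bases holds 32 CpG pairs, and 75.2% of its bases are G or C. The median window of the silencing genes held 29 CpG pairs in 300 bases, and that of all tested genes 25.

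Of the PRC2 core, 0 of 4 subunits were called (all genes 16.6%), too few genes to read as a result about the complex. EZH2, the main H3K27 methyltransferase, had 2102, 2198 and 1864 normalized counts in A375neg and 2190, 1954 and 1972 in A375RIPK4.KO, a log2 fold change of −0.01 (SE 0.08, adjusted p = 0.941). EZH1, its paralogue, had 363, 379.5 and 374 in A375neg and 412, 280 and 364 in A375RIPK4.KO (−0.08, SE 0.14, adjusted p = 0.746). The groups overlapped for both enzymes, and EZH2 was at 27.3 RPKM in A375neg beside 3.27 for EZH1.

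EED, the subunit that binds the finished H3K27 mark, came closest to a call within PRC2. Its normalized counts were 1430, 1365 and 1360 in A375neg and 1609, 1531 and 1631 in A375RIPK4.KO, without overlap (log2 fold change 0.20, SE 0.06, adjusted p = 0.0536), and its adjusted p was 0.0165 without A375RIPK4.KO replicate 2. SUZ12, the scaffold of the complex, was at a log2 fold change of −0.08 (adjusted p = 0.643). Of the accessory subunits that help place PRC2 on chromatin, JARID2 was at −0.25, PHF19 at 0.16 and MTF2 at −0.02. Of these, 0 of 3 were called (all genes 16.6%). Without A375RIPK4.KO replicate 2, JARID2 was at −0.11 and PHF19 at 0.10, while SUZ12 and MTF2 turned to 0.02 and 0.05.

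Of the 9 PRC1 genes, 7 were tested and 0 were called (all genes 16.6%). Their log2 fold changes ran from −0.31 for CBX7 to 0.32 for BMI1, with a lowest adjusted p of 0.172. For 3 of the 7 the groups did not overlap (42.9%, all genes 36.5%). RNF2, the ubiquitin ligase of PRC1, had 862, 918 and 1029 normalized counts in A375neg and 1053, 1058 and 1065 in A375RIPK4.KO, without overlap (0.18, SE 0.08, adjusted p = 0.172). BMI1, a PCGF subunit that sets the identity of canonical PRC1, had only 29, 30 and 22 raw counts in A375neg and 32, 38 and 22 in A375RIPK4.KO, and its log2 fold change was 0.15 without A375RIPK4.KO replicate 2. Of the exon bases of BMI1, 29.2% are shared on the same strand with the readthrough gene COMMD3-BMI1, so its counts are uncertain. Among the chromobox subunits, CBX2 was at 0.0020 and CBX8 at −0.16, while PCGF6 and L3MBTL2, of variant PRC1, were at 0.19 and 0.15. The 3 HP1 genes CBX1, CBX3 and CBX5 lay between 0.03 and 0.08, with CBX3 the most abundant at 188 RPKM in A375neg.

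The H3K9 factors held the higher calls. SUV39H1, the methyltransferase of constitutive heterochromatin at chrX:48695554-48709016, had 1381, 1291 and 1282 normalized counts in A375neg and 1530, 1596 and 1476 in A375RIPK4.KO. The groups did not overlap, and SUV39H1 rose by a log2 fold change of 0.22 (SE 0.06, adjusted p = 0.0478). Its adjusted p was over 0.05 without any 1 library other than A375RIPK4.KO replicate 2 (0.0891 and 0.0761 without A375RIPK4.KO replicates 1 and 3, and 0.0759, 0.163 and 0.155 without A375neg replicates 1 to 3). With no filter on low counts it was 0.0638.

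TRIM28, also called KAP1, is the corepressor through which KRAB zinc finger proteins recruit SETDB1. At chr19:58544064-58550715, it had 27294, 28392 and 26650 normalized counts in A375neg and 31450, 35221 and 30795 in A375RIPK4.KO. All knockout libraries lay above all controls, and replicate 2 was the highest. TRIM28 rose by a log2 fold change of 0.24 (SE 0.07, adjusted p = 0.0448), which is 1.18-fold, in the most abundant of the silencing genes (377 RPKM in A375neg). The adjusted p was 0.00432 with DESeq2 and 0.092 with no filter on low counts. It was 0.163, 0.0973 and 0.155 without A375neg replicates 1 to 3, and 0.0552 and 0.0632 without A375RIPK4.KO replicates 1 and 3.

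The methyltransferases that TRIM28 and heterochromatin use beside SUV39H1 were not called. SUV39H2 had 969, 936 and 921 normalized counts in A375neg and 951, 905 and 879 in A375RIPK4.KO (log2 fold change −0.05, SE 0.07, adjusted p = 0.686). SETDB1 had 1736, 1689 and 1559 in A375neg and 1723, 1638 and 1642 in A375RIPK4.KO (0.0053, adjusted p = 0.967). SETDB2 was low, with 32, 70 and 40 raw counts in A375neg and 56, 35 and 40 in A375RIPK4.KO (0.04, SE 0.33, adjusted p = 0.955). EHMT1, which makes H3K9me2 with EHMT2, had 1724, 1693 and 1731 in A375neg and 1612, 1579 and 1683 in A375RIPK4.KO, without overlap but within the test's error (−0.08, SE 0.06, adjusted p = 0.411).

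The HUSH complex, which silences retroelements, and the histone H3.3 chaperone had 0 calls (all genes 16.6%). TASOR, the HUSH scaffold, had 4313, 4209 and 4747 normalized counts in A375neg and 3986, 3556 and 3787 in A375RIPK4.KO, without overlap (log2 fold change −0.23, SE 0.07, adjusted p = 0.0581). It passed the threshold with DESeq2 (adjusted p = 0.0297), with a gene length correction (0.0347), with a replicate block (0.0415) and with both of these (0.0462). MPHOSPH8, its chromodomain partner, was at −0.18 (SE 0.11, adjusted p = 0.345). ATRX, the remodeller that works with DAXX, was at −0.08 (SE 0.14, adjusted p = 0.751), and SMCHD1, which acts on the inactive X chromosome and at imprinted regions, at −0.175 (SE 0.11, adjusted p = 0.319). Without A375RIPK4.KO replicate 2, MPHOSPH8 was at −0.06, SMCHD1 at −0.05 and ATRX at 0.07. The deacetylases HDAC1 and HDAC2 were at −0.08 and 0.12, and neither was called.

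KDM5B was the silencing gene called in every fit. This demethylase removes methyl groups from lysine 4 of histone H3 and is known in melanoma as a marker of slow-cycling cells. At chr1:202724495-202808421, it had 2578, 2574 and 2707 normalized counts in A375neg and 2016, 1998 and 2074 in A375RIPK4.KO. The knockout libraries lay close together, replicate 2 included, and all were below the controls. KDM5B fell by 0.37 on the log2 scale (SE 0.06, adjusted p = 0.00216), that is, it was 1.29-fold higher in A375neg. It was called in all 14 other fits, with log2 fold changes from −0.38 to −0.31.

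The H3K27 demethylases did not pass the test. KDM6B had 543, 551 and 553 normalized counts in A375neg and 473, 133 and 365 in A375RIPK4.KO, without overlap but with a wide spread in the knockout (log2 fold change −0.76, SE 0.34, adjusted p = 0.175). Without A375RIPK4.KO replicate 2 the log2 fold change was −0.39 and the adjusted p 0.0393. KDM6A, its X-linked paralogue, had 683, 842 and 929 in A375neg and 842, 736 and 794 in A375RIPK4.KO (−0.05, SE 0.11, adjusted p = 0.813).

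**Figure D3:**
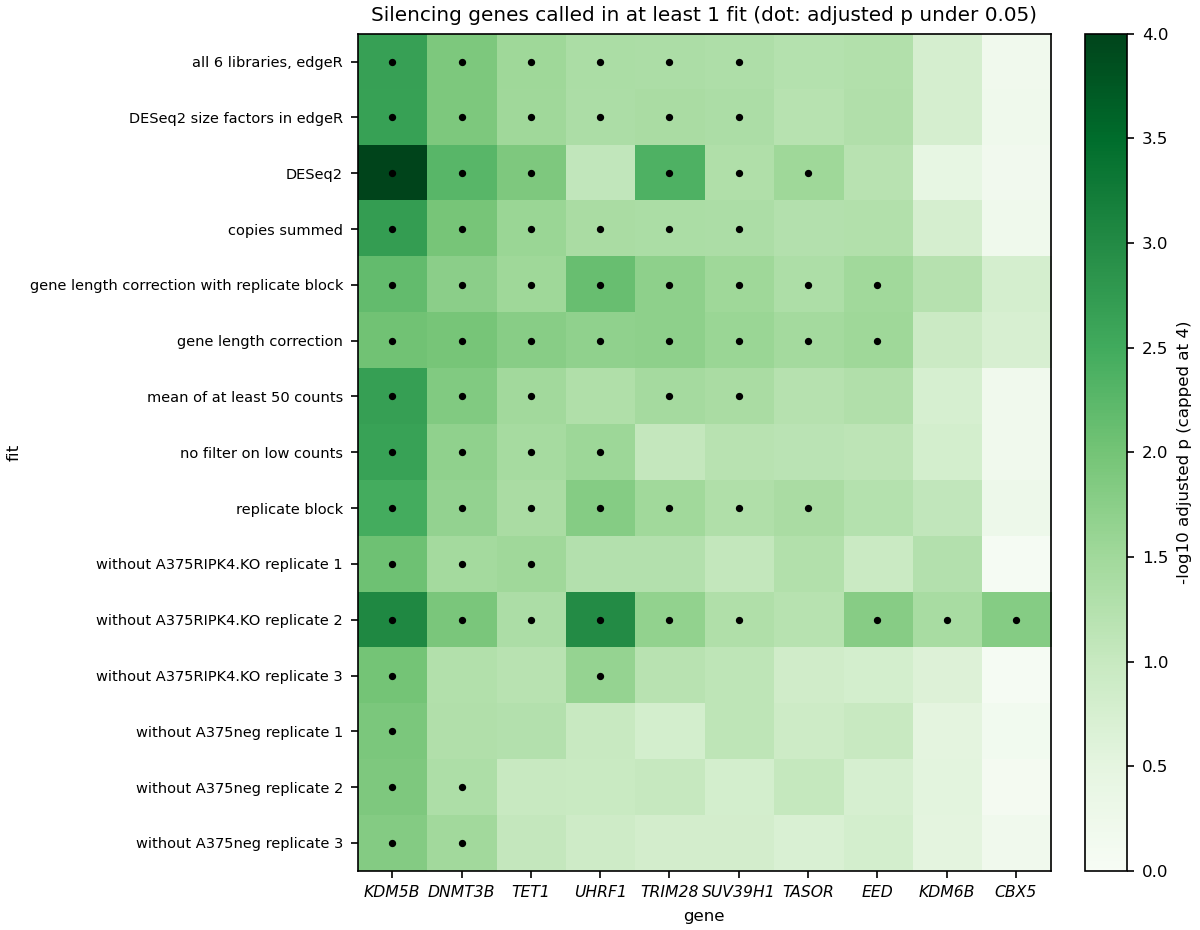
The 10 tested silencing genes with an adjusted p under 0.05 in at least 1 fit are set against the 15 fits, with darker green for a larger −log10 adjusted p and a dot where it was under 0.05. KDM5B has a dot in every row, DNMT3B in the row with all 6 libraries and in 12 of the 14 others, and the rows without 1 A375neg library hold 1 or 2 dots.

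The number of calls depended on the libraries. With each A375neg library left out in turn, 1, 2 and 2 of the silencing genes were called, while 10.7%, 10.3% and 11.1% of all genes were. Without A375RIPK4.KO replicates 1 and 3 the counts were 3 and 2 (all genes 14.4% and 11.6%). Without A375RIPK4.KO replicate 2 there were 9 (all genes 19.8%), the 6 above with EED, CBX5 and KDM6B, and CBX5 then had a log2 fold change of 0.20 (adjusted p = 0.0157). With all libraries, 4 were called with no filter on low counts (all genes 10.8%), without SUV39H1 and TRIM28, 5 when the mean count had to reach 50 (18%), without UHRF1, 6 with DESeq2's size factors (16.7%), 7 with copies summed (17.2%), EHMT2 being the added gene, 7 with a replicate block (17.6%), TASOR being the added gene, and 8 with a block and a gene length correction (20.8%). Over the fit of all libraries and the 14 others, 34 of the 44 tested silencing genes (77.3%) and 73.9% of all genes tested were never called. Called in every fit were 1 silencing gene, KDM5B (2.27%), and 7.8% of all genes tested.

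The counts of A375RIPK4.KO replicate 2 tended to be lower, relative to the other knockout libraries, in genes with longer exons. Across the 44 tested silencing genes, the log2 ratio of this library to the mean of A375RIPK4.KO replicates 1 and 3 had a Spearman correlation with merged exon length of −0.493 (Pearson −0.436). Across 13680 genes of the whole table the Spearman correlation was −0.387, and these points share 3 libraries. The median ratio was 0.05 for the 15 silencing genes with under 4000 exon bases and −0.22 for the 29 longer ones. KDM6B (−1.66), UHRF1 (−0.83), TET3 (−0.82), DNMT3A (−0.79), TET1 (−0.52) and ATRX (−0.50) were below −0.5. They were 13.6% of the silencing genes, beside 10% of all genes and 5.04% of those with a like mean level, in which the Spearman correlation with length was −0.560. Single genes departed from this trend. KDM6B and UHRF1, the lowest, have 6713 and 5145 exon bases, whereas KDM5B, with 14003 exon bases, was at −0.03. DNMT3B was at 0.16. When the trend with gene length was removed from each library, 8 silencing genes were called (all genes 20.2%), namely the 6 above with EED and TASOR. With this correction the log2 fold change between the groups was −0.65 for UHRF1 and −0.76 for KDM6B, and without it −0.65 and −0.76. For DNMT3A, TET1, TET3 and ATRX it was −0.48, −0.70, −0.19 and −0.04 with the correction and −0.50, −0.73, −0.21 and −0.08 without it. The part of this length trend in each single difference was not tested otherwise.

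**Figure D4:**
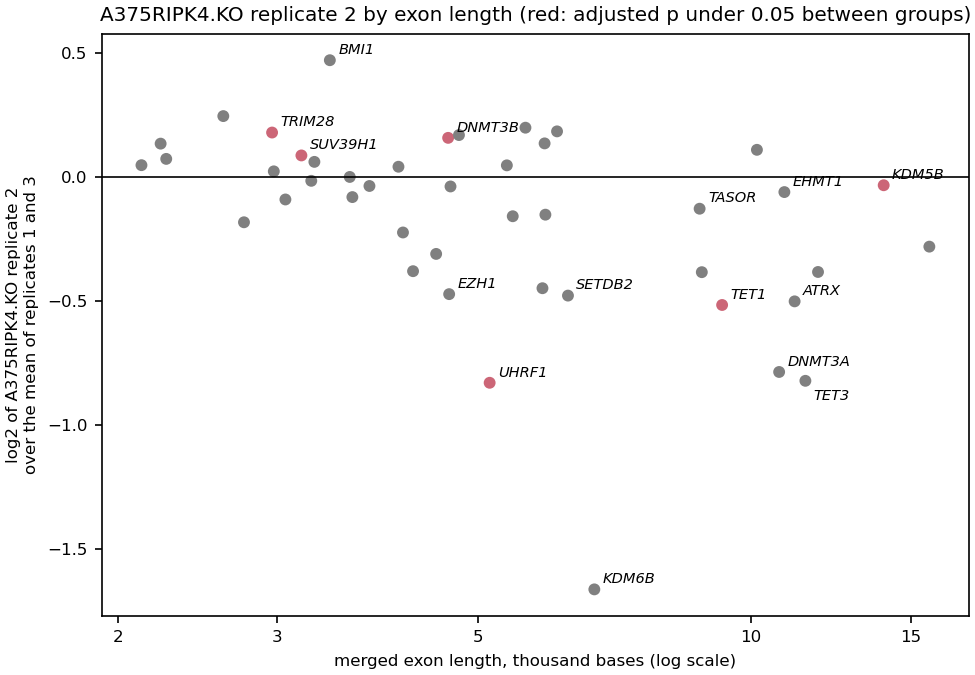
For the 44 tested silencing genes, the log2 ratio of A375RIPK4.KO replicate 2 to the mean of A375RIPK4.KO replicates 1 and 3 is plotted against merged exon length (log axis, kilobases), with the 6 called genes in red. KDM6B is lowest at −1.66 and UHRF1 follows at −0.83, while KDM5B, among the longest, is at −0.03.

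Some silencing genes could not be read from their chromosome row. RING1, EHMT2 and DAXX lie on chromosome 6 and PCGF2 on chromosome 17, and each also has rows on alternate or fix scaffolds, with 14 such rows in all and 1 row for each of the other 43 genes. The chromosome row of EHMT2 had 0 raw counts in all A375neg libraries and 1, 333 and 2 in A375RIPK4.KO. Its 7 rows together had 32, 20 and 13 in A375neg and 62, 463 and 159 in A375RIPK4.KO, so that most of the difference came from 2 libraries and the row that took the counts changed from library to library. With the rows of each gene summed, EHMT2 had a log2 fold change of 3.50 (SE 0.68, adjusted p = 0.00709). With few counts in A375neg, and with counts spread over copies whose reads can be shared, this value is uncertain.

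RING1, the other ubiquitin ligase of PRC1, had at most 1 raw count in its chromosome row and 2 to 29 over its 5 rows. PCGF2 had 0 to 2 raw counts in its chromosome row, while its scaffold row had 384, 362 and 292 in A375neg and 685, 36 and 542 in A375RIPK4.KO. A375RIPK4.KO replicate 2 was far the lowest there, and the summed gene had a log2 fold change of 0.43 (SE 0.69, adjusted p = 0.72). DAXX, the H3.3 chaperone, had 31, 29.5 and 23.7 normalized counts in A375neg in its chromosome row and 44.8, 47 and 34.5 in A375RIPK4.KO, without overlap (0.58, SE 0.26, adjusted p = 0.178). Its 4 rows together had 201, 63 and 44 raw counts in A375neg and 74, 72 and 65 in A375RIPK4.KO, and the log2 fold change then turned to −0.43 (adjusted p = 0.612), with A375neg replicate 1 far above the rest.

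**Figure D5:**
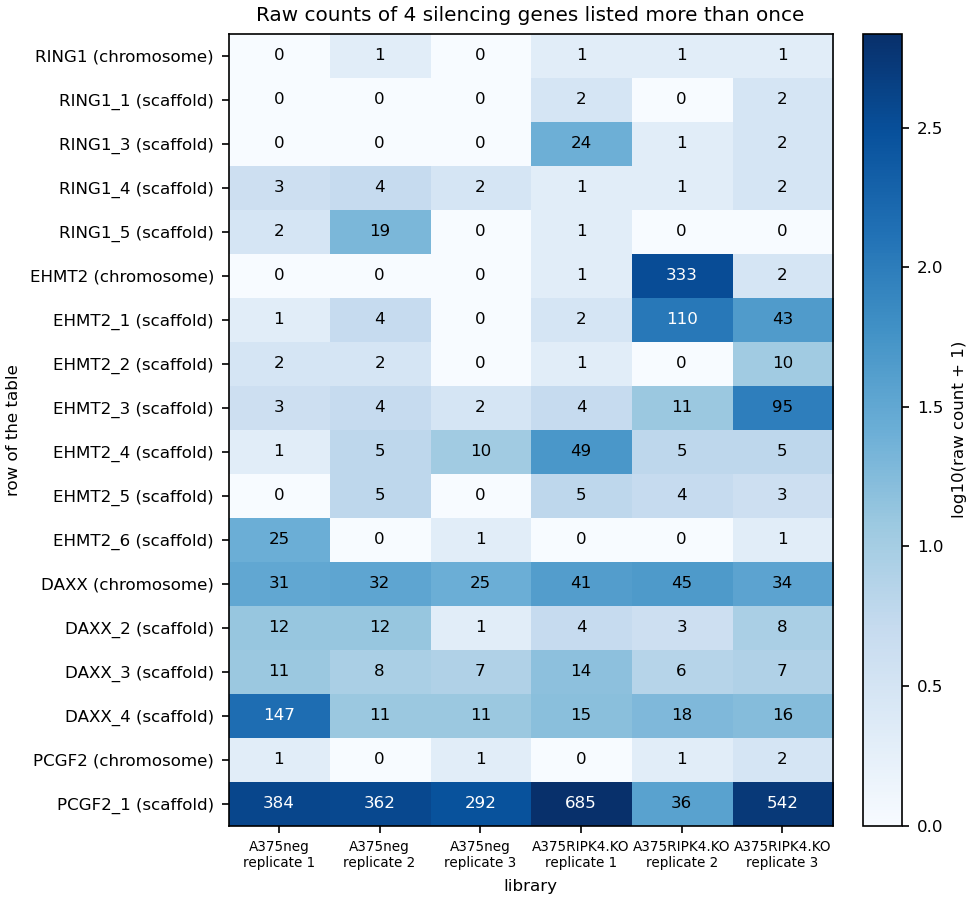
Raw counts of every row of RING1, EHMT2, DAXX and PCGF2 are shown in the 6 libraries, with the count in each cell and darker blue for a higher log10 of the count plus 1. The counts of EHMT2 sit in different rows in different libraries (333 in the chromosome row of A375RIPK4.KO replicate 2 and 0 in that of every A375neg library), and PCGF2 is counted almost wholly in its scaffold row.

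Ratios between paralogues do not depend on the scaling between libraries. Of 8 pairs, 6 could be formed, and EHMT1/EHMT2 and PCGF2/BMI1 could not because of counts of 0. The ratio of SUV39H1 to SUV39H2 was 1.43, 1.38 and 1.39 in A375neg and 1.61, 1.76 and 1.68 in A375RIPK4.KO, a difference of 0.27 on the log2 scale. The ratio of KDM6A to KDM6B was 1.26, 1.53 and 1.68 in A375neg and 1.78, 5.55 and 2.17 in A375RIPK4.KO, a difference of 0.91 with replicate 2 far above the others. Both pairs had no overlap and an exact two-sided permutation p of 0.1, the smallest that 3 against 3 libraries allow, which was 0.3 after adjustment over the 6 pairs. The ratios of EZH1 to EZH2, DNMT3A to DNMT3B, SETDB1 to SETDB2 and TET2 to TET3 overlapped between the groups (exact permutation p of 0.6 to 0.9).

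Further subunits and partners of the same complexes were read from a list of their own. Of 78 partner genes, 74 were in the table and 71 were tested, and 8 were called (11.3%, all genes 16.6%), with 4 higher and 4 lower. The groups did not overlap for 18 of the 71 (25.4%, all genes 36.5%), and 2 passed the 1.5-fold limit (2.82%, all genes 9.04%). ZBTB38, a zinc finger protein that binds methylated CpG, had 8505, 8058 and 9528 normalized counts in A375neg and 4707, 4218 and 5050 in A375RIPK4.KO, and fell by 0.90 on the log2 scale (SE 0.09, adjusted p = 0.000152). BCORL1, a corepressor found with PRC1, fell by 0.87 (SE 0.12, adjusted p = 0.00129), and both were below the controls in 3 of 3 knockout libraries.

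The other lower partners were CHD3, a remodeller of the NuRD complex (log2 fold change −0.38, adjusted p = 0.0108), and SIN3A, the scaffold of a deacetylase complex (−0.33, adjusted p = 0.0495). The higher partners were SCMH1, a Polycomb protein (0.57, adjusted p = 0.000883), MORC2, an ATPase that HUSH recruits (0.38, adjusted p = 0.00254), SAP30, a SIN3 subunit (0.46, adjusted p = 0.00628), and RBBP7, a histone-binding subunit of PRC2 and NuRD (0.20, adjusted p = 0.0384). ZBTB38, BCORL1, SCMH1, MORC2 and SAP30 were called in all 14 other fits, CHD3 in 13, and RBBP7 and SIN3A in 8 each. CHD3 was at an adjusted p of 0.0525 without A375neg replicate 3. RBBP7 and SIN3A were over 0.05 without A375neg replicate 1, 2 or 3 or A375RIPK4.KO replicate 3, at 0.0668 to 0.144, and RBBP7 also without A375RIPK4.KO replicate 1 (0.069).

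Genes of proliferation were read beside these, since UHRF1, DNMT1, EZH2 and SUV39H1 are known to follow the cell cycle. In RNA from bulk cells, fewer cells in a phase and less RNA per cell cannot be told apart. Of 32 listed proliferation genes 31 were tested, with log2 fold changes from −0.18 to 0.38 and a median of 0.07, and 2 were called, both higher (6.45%, all genes 16.6%, or 8.4% on the higher side). CDC20, an activator of the anaphase-promoting complex, had 10097, 10920 and 10750 normalized counts in A375neg and 12812, 15109 and 13521 in A375RIPK4.KO (0.38, SE 0.08, adjusted p = 0.00768). Without A375neg replicate 1 the adjusted p of CDC20 was 0.052. AURKB, a mitotic kinase, was at 0.27 (SE 0.08, adjusted p = 0.0433). Its adjusted p was 0.0595, 0.157 and 0.142 without A375neg replicates 1 to 3, 0.0779 without A375RIPK4.KO replicate 3 and 0.0528 with a replicate block. At an unadjusted p under 0.05 there were 11 of the 31 (35.5%, all genes 30%), and for 15 the groups did not overlap (48.4%, all genes 36.5%). DESeq2 called 6 of the 31 (19.4%, all genes 16.2%), 5 higher and 1, RRM2, lower. With the gene length correction 8 were called (25.8%, all genes 20.2%), 5 higher and 3 lower, namely PCNA, RRM2 and TYMS. The share called thus lay below or above the background depending on the fit. The part of these genes in the values of UHRF1 and SUV39H1 was not tested.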

How the data were processed

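Poly(A)-enriched, strand-specific libraries of A375 cells, 3 per group, were sequenced by the authors' provider. The raw counts per gene were deposited as whole numbers. The submitters' processing notes name cutadapt, FastQC, HISAT2, HTSeq, DESeq2 and GRCh38.p13, with versions not given in the sources used here, and how reads that fit several copies of a gene were counted is not stated. The normalized counts deposited by the authors are a signal, the raw counts over 1 size factor per library (largest difference 0.0764), and were used only for that check. The authors' own fold changes and p-values were not used.

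Raw counts were tested in R 4.3.3 with edgeR 4.0.16 (TMM, filterByExpr, glmQLFTest, p-values adjusted by Benjamini and Hochberg's method over 14443 genes), after the steps were tested on simulated data. Exact permutation tests served for paralogue ratios. RPKM used merged GENCODE release 29 exons. Alternatives were DESeq2 1.42.0, its size factors in edgeR, other filters, the replicate number as a block, a gene length correction, summed copies and each library left out. By rule, silencing genes with an adjusted p under 0.05 and the paralogue pairs were given library by library. So were silencing genes without overlap and with a log2 fold change of at least 0.3 in size. Of the called partner, proliferation and marker genes, only some were. EED, RNF2, TASOR, DNMT1 and PCGF2's scaffold row were added after their values were seen. The members and lists were chosen with earlier results of these data known. The study describes the replicates as independent and biological, without saying how they were kept apart, and p-values measure the spread between these libraries. Sequences came from RefSeq. Of the cell type markers, 7 of 11 melanoma, 4 of 6 leukocyte, 3 of 6 keratinocyte, 4 of 6 fibroblast and 4 of 4 endothelial genes were in the table.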

Additional observations from a re-analysis of the deposited data

How the results depend on the processing

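The count of 6 silencing genes called was 1 to 9 when 1 library was left out, and the count past 1.5-fold (3) was 0 to 2. That of partner genes (8) was 5 to 12 and that of proliferation genes (2) was 0 to 5. Over these fits 10.3% to 19.8% of all genes were called, the highest share being that without A375RIPK4.KO replicate 2. Proliferation genes numbered 6 with DESeq2 (5 higher, 19.4%, all genes 16.2%) and 6 with the gene length correction and replicate block (5 higher, 19.4%, all genes 20.8%). They numbered 8 with the length correction alone (5 higher, 25.8%, all genes 20.2%). At an unadjusted p they numbered 11 (35.5%) and partner genes 14 (19.7%), beside 30% of all genes. The unadjusted p was added after the data had been seen. Same-numbered libraries did not deviate together (correlations 0.0823, 0.0357 and −0.0119), and with the replicate number as a block 7 silencing genes were called. Alternatives were compared for the genes of the rule, for EED, TASOR and CBX5, and for the paralogue ratios. Among them, 294 kept direction and side of the threshold, 24 lost the call, 9 gained it and 20 changed sign.

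Signs changed only for values that were not called. With each library omitted in turn, the log2 fold change ranged from −0.1565 to 0.0071 for TET2, −0.3490 to 0.0155 for TET3 and −0.2078 to 0.0629 for EZH1, each above 0 only without A375RIPK4.KO replicate 2. It ranged from −0.0762 to 0.0413 for EZH2, −0.0377 to 0.0380 for SETDB1, −0.2167 to 0.3974 for SETDB2 and −0.1637 to 0.0518 for KDM6A. The log2 ratio differences ranged from −0.1598 to 0.0372 for EZH1/EZH2, −0.0463 to 0.4822 for DNMT3A/DNMT3B, −0.3484 to 0.177 for SETDB1/SETDB2 and −0.0056 to 0.2763 for TET2/TET3. The cause was not tested. DAXX turned to −0.4338 with copies summed, through the counts on its scaffold rows. RIPK4 was called in all 14 fits, at −2.80 to −2.59, and KDM5B likewise. BMI1, DAXX and SETDB2 had the fewest counts of the tested silencing genes, at means of 29.07, 35.07 and 45.45 normalized counts. Counting error weighs most in such genes, although the largest SE was that of KDM6B (0.34).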
